A study of Homo sapiens with 6 samples.

Results

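Regions of accessible chromatin found in RKO cells treated with DMSO and not in cells treated with aphidicolin (APH) were described. Peaks of 6 samples were merged where they overlapped by at least 1 bp, which gave 102784 regions. A region was called DMSO only if it had a peak in at least 2 of the 3 DMSO samples and in no APH sample, and 1258 of the 102784 regions met this rule. The members were thus chosen by the peaks called in all 6 samples, with no regard to genes or position. RKO is a human colon cancer cell line, grown here in DMEM with 10% serum at 5% oxygen. The 3 treated samples received 0.2 µM APH for 16 h, and the 3 control samples are labelled DMSO, the solvent. All cells were treated with DNase and frozen before the assay, and the 6 samples come from 3 independent experiments on 1 cell line. Which DMSO and APH samples share an experiment is not stated in the labels. The study asked how low replication stress acts on chromatin accessibility.

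In ATAC-seq, the Tn5 transposase cuts DNA that nucleosomes leave uncovered and adds adapters to the ends, so promoters and enhancers give many fragments. Promoters that are active in most cells give wide, strong peaks, while enhancers lie in introns and between genes and are often weaker. APH inhibits the replicative DNA polymerases and slows replication forks, and in long genes that replicate late it can give rise to gaps and breaks at common fragile sites. The value of a peak here is the mean coverage of the peak, counted in bins of 32 nt after each alignment was extended to 200 bp. A region in which no peak was called has no value in the files. Absence of a peak therefore means a coverage that the peak caller did not accept, and not a coverage of 0.

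The promoters below belong to DMSO only regions with a peak in all 3 DMSO samples and are shown because these regions were among the strongest at gene starts. Each sequence is the 250 bases before the gene start, read 5′ to 3′ on the strand of the gene from RefSeq GRCh38.p14, and capitals mark the bases inside the DMSO only region. FOSB encodes a subunit of the transcription factor AP-1 (chr19:45467746-45467995, plus strand). TPI1 encodes triosephosphate isomerase of glycolysis (chr12:6867855-6868104, plus strand). ARHGDIA encodes a GDP dissociation inhibitor of small GTPases (chr17:81871338-81871587, minus strand). MLLT6 encodes a protein with a PHD finger and is a fusion partner of KMT2A in leukaemia (chr17:38705023-38705272, plus strand). EEF2 encodes the elongation factor that moves the ribosome along the mRNA (chr19:3985464-3985713, minus strand).
FOSB: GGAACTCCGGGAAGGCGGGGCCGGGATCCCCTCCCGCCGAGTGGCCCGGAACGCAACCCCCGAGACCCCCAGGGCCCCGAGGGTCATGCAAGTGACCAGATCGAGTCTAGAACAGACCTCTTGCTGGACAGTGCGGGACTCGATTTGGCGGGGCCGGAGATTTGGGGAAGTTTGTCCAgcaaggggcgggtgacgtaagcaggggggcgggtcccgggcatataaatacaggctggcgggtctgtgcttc
TPI1: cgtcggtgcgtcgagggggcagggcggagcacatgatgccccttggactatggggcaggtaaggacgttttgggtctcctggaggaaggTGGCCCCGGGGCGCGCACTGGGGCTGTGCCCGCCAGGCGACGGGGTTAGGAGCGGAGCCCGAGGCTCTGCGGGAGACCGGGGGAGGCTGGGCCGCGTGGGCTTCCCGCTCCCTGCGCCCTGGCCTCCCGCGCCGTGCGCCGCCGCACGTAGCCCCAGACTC
ARHGDIA: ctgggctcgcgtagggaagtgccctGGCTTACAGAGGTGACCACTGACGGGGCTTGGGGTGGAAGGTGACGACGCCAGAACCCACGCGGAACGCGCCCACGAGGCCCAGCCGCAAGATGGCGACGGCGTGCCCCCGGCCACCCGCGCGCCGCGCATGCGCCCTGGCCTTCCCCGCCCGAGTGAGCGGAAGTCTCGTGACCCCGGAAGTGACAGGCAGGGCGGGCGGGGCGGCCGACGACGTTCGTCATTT
MLLT6: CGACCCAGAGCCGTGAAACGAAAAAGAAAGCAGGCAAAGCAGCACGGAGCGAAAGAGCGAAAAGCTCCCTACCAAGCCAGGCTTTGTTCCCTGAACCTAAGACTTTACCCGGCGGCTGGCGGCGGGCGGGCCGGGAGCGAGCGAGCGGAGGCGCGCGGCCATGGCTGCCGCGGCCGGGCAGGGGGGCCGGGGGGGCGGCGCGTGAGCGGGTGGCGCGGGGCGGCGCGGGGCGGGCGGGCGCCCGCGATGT
EEF2: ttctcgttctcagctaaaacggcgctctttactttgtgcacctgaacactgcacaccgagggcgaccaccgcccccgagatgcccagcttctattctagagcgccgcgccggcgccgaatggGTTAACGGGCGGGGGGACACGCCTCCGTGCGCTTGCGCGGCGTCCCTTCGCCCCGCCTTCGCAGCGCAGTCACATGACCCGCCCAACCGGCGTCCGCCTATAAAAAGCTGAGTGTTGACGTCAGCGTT

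The DMSO only region covered 178 of the 250 bases at FOSB, 161 at TPI1, 225 at ARHGDIA, all 250 at MLLT6 and 128 at EEF2. At FOSB, the capitals ended before the TATA box (TATAAA), whose first base lay 30 bases before the start. At EEF2, the TATA box lay at the same distance and a cAMP response element (TGACGTCA) began 13 bases before the start, both inside the region. Over the 26 protein-coding promoters that a DMSO only region overlapped, the median GC content was 72.4%. It was 65.2% over the 9401 promoters overlapped by regions shared by both conditions and 62.4% over all 15843 promoters. The GC box (GGGCGG, either strand) was present in 20 of the 26 promoters (76.9%), against 69.5% of the promoters with a shared region and 56.0% of all promoters. The CCAAT box (CCAAT) was present in 5 (19.2%, against 36.3% and 34.5%) and the TATA box in 3 (11.5%, against 4.85% and 9.23%). The cAMP response element and an ETS motif (CCGGAAG) were present in 1 promoter each (3.85%). They were in 3.05% and 17.6% of the promoters with a shared region and in 2.32% and 11.8% of all promoters. The AP-1 motif (TGANTCA, where N is any base) was in none of the 26, in 3.72% of the promoters with a shared region and in 5.04% of all promoters. Both strands were searched for every motif. The GC box was thus the most frequent of the 6 motifs in each set, and these counts describe letters only.

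Between 64511 and 77194 peaks were called per DMSO sample and between 70121 and 84510 per APH sample. Peak lists hold no read totals. Depth is therefore unknown, and values have no counting interval. The lowest value of a peak lay between 15.1 and 15.5 in all samples. A peak lay at the promoters of CDX2, an intestinal transcription factor, and LMNA, which encodes lamin A, in all 6 samples. No sample had one at CDH1, which encodes E-cadherin.

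DMSO only regions were few and weak. A total of 189 had a peak in all 3 DMSO samples and 1069 in exactly 2. Of the latter, 502 were found in DMSO replicates 1 and 2, 370 in replicates 2 and 3, and 197 in replicates 1 and 3. They made up 1.35%, 1.37% and 1.17% of the peaks of the 3 DMSO samples. The mirror set, with a peak in at least 2 APH samples and in no DMSO sample, held 5330 regions. The count of DMSO only regions rests on every library. It was 564, 386 and 697 when DMSO replicate 1, 2 or 3 was left out and a peak was required in both of the others, and 2098, 2546 and 1975 when APH replicate 1, 2 or 3 was left out. When each sample was reduced to its 64511 strongest peaks, DMSO only regions rose to 2468 and APH only regions fell to 2291. APH only regions thus outnumbered DMSO only regions with all peaks and not in this setting.

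The median value of the DMSO only regions was 25.7, with quartiles of 22.5 and 36.7. The full range was 17.0 to 236. In the 3 DMSO samples, the median of their peaks was 25.4, 26.6 and 26.3, against 51.0, 53.8 and 52.5 over all peaks of the same samples. Of all peaks of a DMSO sample, 14.8% to 16.7% were weaker than the median DMSO only peak. These values come from the peaks that chose the regions and are a description. Just outside the rule, regions with a peak in 1 DMSO sample and in no APH sample numbered 5970 and had a median of 23.7. The 2828 regions with a peak in at least 2 DMSO samples and exactly 1 APH sample had a median of 26.8. APH only regions had a median of 24.8.

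**Figure D1:**
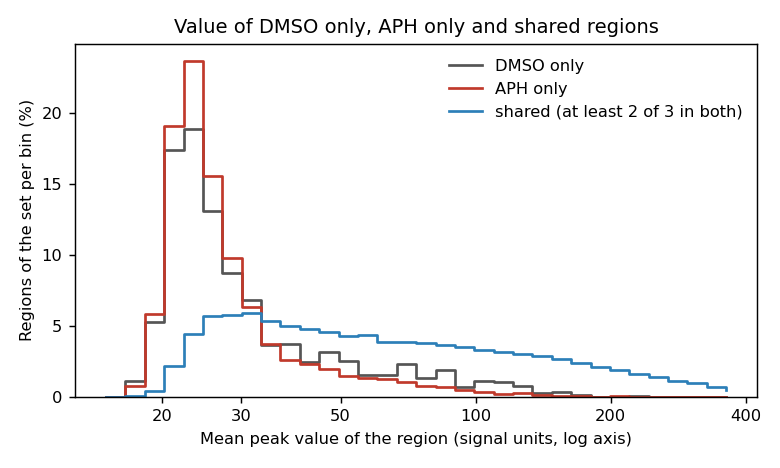
Distribution of the mean peak value of each region (x axis, signal units, log axis) as the percent of regions of the set per bin (y axis), for DMSO only (grey), APH only (red) and shared regions with a peak in at least 2 samples of both conditions (blue). The DMSO only and APH only sets both peak between 20 and 30, with medians of 25.7 and 24.8, and shared regions reach further to the right.

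To read whether the absence of a peak carried over to samples that did not choose the region, 1 DMSO and 1 APH sample were held out and regions with a peak in the 2 remaining DMSO samples and in neither of the 2 remaining APH samples were listed. This was done for all 9 pairs of held-out samples, with 668 to 1554 regions each. The held-out DMSO sample had a peak in 44.1% of these regions on average (range 29.99% to 61.9%). The held-out APH sample had one in 45.7% (range 31.6% to 55.5%). The difference was -1.62 ± 13.9 percentage points (SD over the 9 pairs, which share samples), and DMSO was higher in 4 of the 9. On average, regions chosen this way had a peak about as often in the APH sample left out as in the DMSO sample left out, with a wide spread. The share varied with the sample, with 56.9% in DMSO replicate 2 and 52.2% in APH replicate 2, the samples with the most peaks of their group, and 33.9% in DMSO replicate 3. In the mirror selection of 2363 to 7328 regions, the held-out APH sample had a peak in 54.7% and the held-out DMSO sample in 31.9%, a difference of 22.8 ± 16.9 points with APH higher in 8 of 9.

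**Figure D2:**
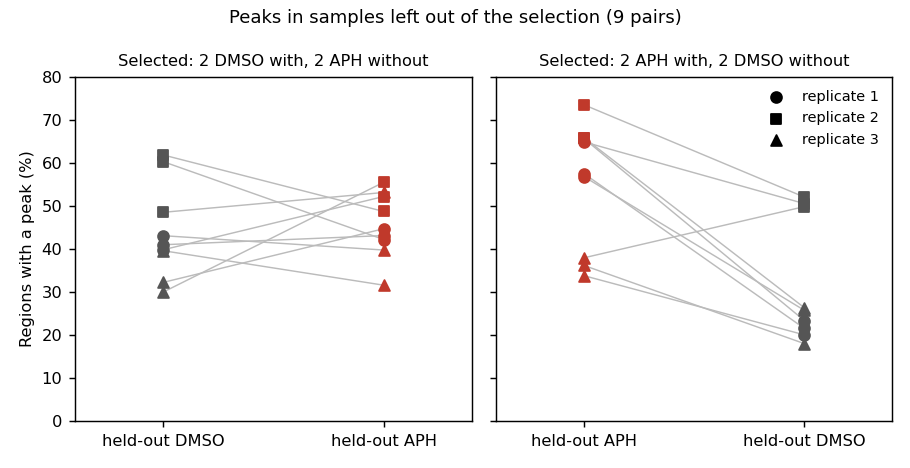
Percent of regions with a peak (y axis) in the DMSO sample (grey) and the APH sample (red) left out of the selection, 1 line for each of the 9 pairs and 1 symbol for each replicate. On the left, for regions chosen in DMSO, the lines run both ways around 44.1% and 45.7%, and on the right, for regions chosen in APH, 8 of 9 lines fall toward DMSO.

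The number of peaks per sample moved with this result. With the same number of peaks in every sample, the held-out DMSO sample had a peak in 52.6% of the regions chosen in DMSO and the held-out APH sample in 37.5%, a difference of 15.04 ± 7.85 points with DMSO higher in 8 of 9 pairs. The mirror selection then gave 14.7 ± 6.72 points. In this setting the lowest value kept was 19.6, 26.4 and 15.5 in the DMSO samples and 26.5, 29.1 and 21.9 in the APH samples, so weak peaks of the APH samples were removed while those of DMSO replicate 3 stayed. With all peaks, regions of value 60 or more in the choosing samples had a peak in 54.2% in the held-out DMSO sample and 44.9% in the held-out APH sample, 9.27 ± 14.9 points apart and higher in DMSO in 8 of 9 pairs. The difference was smaller than its spread. Below a value of 30 the shares were 42.0% and 42.8%, and from 30 to 60 they were 46.2% and 48.5%.

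DMSO only regions lay mainly away from gene starts. At promoters, taken as up to 1 kb on either side of a gene start, lay 10.1%, in the body of a gene 56.3% and between genes 33.6%. Shared regions with a peak in at least 2 samples of both conditions, averaged with weights that give them the same DMSO values, had 7.80% at promoters, 56.1% in gene bodies and 36.1% between genes. All regions had 16.5%, 51.4% and 32.1%. APH only regions had 5.63%, 56.3% and 38.1%. The median distance to the start of a protein-coding gene was 26.6 kb for DMSO only regions, 42.6 kb for shared regions of like value and 41.3 kb for APH only regions. More than 100 kb away lay 21.2%, 28.1% and 28.4%. Over all regions the median distance was 26.3 kb and 20.8% lay more than 100 kb away. The 2828 regions with peaks in at least 2 DMSO samples and 1 APH sample had a median distance of 27.2 kb, with 12.8% at promoters, and the 5970 with a peak in 1 DMSO sample and none in APH had 28.5 kb and 6.82%. DMSO only regions were thus nearer to coding starts than shared regions of like value and APH only regions, but at a distance like that of all regions and of these other patterns with few peaks. Their share at promoters lay between that of shared regions of like value and that of all regions. With the 64511 strongest peaks of each sample, 6.69% lay at promoters. Regions share their samples and are not replicates, so no test was made of these differences.

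Gene density was higher than around shared regions of like value and APH only regions. Within 500 kb at each side of a DMSO only region, the mean number of protein-coding genes was 12.5 (median 8), against 9.07 (median 7) for shared regions of like value and 9.31 (median 7) for APH only regions. Over all regions it was 11.6 (median 8), over those with at least 2 DMSO peaks and 1 APH peak 12.2 (median 9) and over those with 1 DMSO peak alone 12.03 (median 8), values close to that of DMSO only regions. The position differed among the DMSO samples that carried the peaks. Regions found in replicates 1 and 3 were at promoters in 26.9% and had a median of 12 protein-coding genes around them and a median value of 31.1. Those found in replicates 1 and 2 were at promoters in 4.78%, with a median of 7 genes and a value of 24.9. Replicates 2 and 3 gave 7.84%, 10 genes and 25.8, and regions in all 3 samples gave 11.1%, 9 genes and 27.4. The share at promoters thus ranged over more than the difference from shared regions of like value, and the distance to genes depended on which pair of DMSO samples was read.

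The regions were narrow. Their median width was 289 bp, with quartiles of 260 and 323 bp and a maximum of 825 bp. Shared regions of like value had a median of 362 bp. Regions merged from more samples can be wider for that reason alone. The median width of single peaks was 246 bp in DMSO only regions and 296 bp in shared regions of like value, and the part of the selection in this was not tested. APH only regions were as narrow (292 bp), and regions with 1 DMSO peak alone had 225 bp.

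The position of DMSO only regions varied with their value. Of the 1258, 145 (11.5%) had a value of 60 or more. Of these, 69 (47.6%) lay at promoters, with a median distance of 1.30 kb to the start of a protein-coding gene and a mean of 19.99 protein-coding genes around them. Of shared regions of value 60 or more, 42.0% lay at promoters, and of APH only regions of that value 25.3%. The 811 regions with a value below 30 lay at promoters in 2.59%, at a median of 40.7 kb and with a mean of 9.12 genes. Many of the strong regions stood beside a region with a peak in all 6 samples (a common region). Within 500 bp of a common region lay 66 of the 145 (45.5%), against 14.3% of shared regions of value 60 or more. Of 297 APH only regions of that value, 37.7% lay so close. Among DMSO only regions of value below 30, it was 0.740%.

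**Figure D3:**
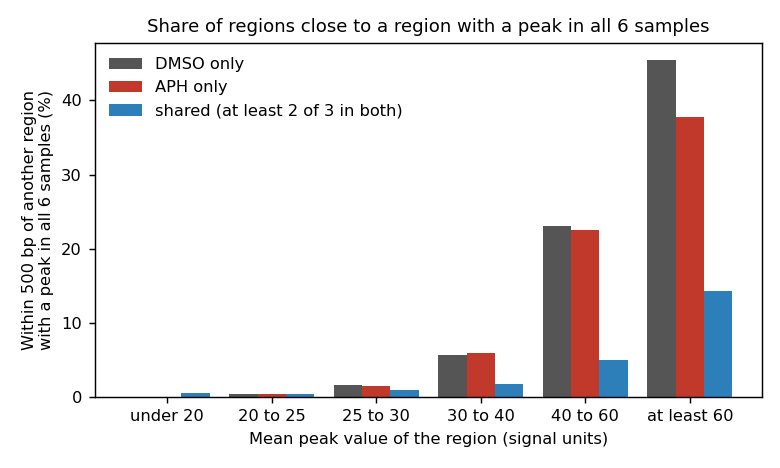
Percent of regions within 500 bp of another region with a peak in all 6 samples (y axis) by the mean peak value of the region (x axis, signal units), for DMSO only (grey), APH only (red) and shared regions (blue). Each set is highest in its strongest class, at 45.5%, 37.7% and 14.3%.

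The common region beside these 66 strong regions was the stronger one in 65 cases. The median value was 82.2 for the DMSO only regions and 184 for their neighbours in DMSO. The neighbour had a lower mean value in APH than in DMSO in 60 of the 66 (90.9%), against 59.7% of all common regions and 83.7% of common regions weighted to the same strength, a baseline added after the data were seen. Among peaks outside common regions, the median value per sample was 53.8 to 65.7 within 500 bp of a common region and 23.7 to 25.8 beyond 5 kb, and the 5th percentile was 25.8 to 26.9 and 18.7 to 19.7. The lowest value was 16.8 to 18.8 close by and 15.1 to 15.5 far away, so weak peaks were listed at both distances. The coverage of the DMSO only regions in APH is not in the files, and the part of the neighbour or of the calling limit in the missing APH peaks was not tested.

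Single regions among the strongest are given here with the nearest common region. The region at TPI1 (chr12:6867944-6868363) had 117, 117 and 126, and its neighbour 264 bp away had 132, 139 and 125 in DMSO and 117, 142 and 116 in APH. The region at FOSB (chr19:45467580-45467923) had 119, 114 and 129, and the nearest common region, 945 bp away, had 180, 196 and 234 in DMSO and 169, 181 and 201 in APH. A region with a peak in at least 1 APH sample lay closer to it, at 378 bp. In the common regions beside TPI1 and FOSB the DMSO and APH values overlapped.

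The highest mean among regions in all 3 DMSO samples was found in the gene body of PTPN1, which encodes the tyrosine phosphatase PTP1B (chr20:50513826-50514065), with 134, 191 and 158. Its nearest common region was 2471 bp away, at 353, 470 and 355 in DMSO and 326, 321 and 326 in APH. The APH values lay below all DMSO values there. ITGB1, which encodes integrin beta 1, was the nearest protein-coding gene to a region 50627 bp from its start (chr10:33008751-33008965) with 108, 119 and 109. Its neighbour 2623 bp away had 333, 367 and 344 in DMSO against 235, 240 and 239 in APH, a log2 difference of -0.55 ± 0.12 (SE, limma, adjusted p = 0.290, Benjamini-Hochberg over all common regions). The groups did not overlap at this neighbour, and the difference did not pass the adjusted threshold of 0.05. A region in POLD4, which encodes the small subunit of DNA polymerase delta (chr11:67351279-67351523), had 114, 132 and 106. Its neighbour 1539 bp away had 198, 206 and 194 in DMSO and 177, 181 and 195 in APH, where the groups overlapped.

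In all, 16 regions met the rule by value: the 12 strongest with a peak in all 3 DMSO samples and the 10 strongest of these at protein-coding promoters. Besides those above, the nearest protein-coding genes included TMEM238, MTAP of methionine salvage (113714 bp away), ARHGDIA, DLK1 (34424 bp away), MLLT6, PER1 of the circadian clock, EEF2, ZMYND19, SQSTM1, an autophagy receptor, and RABGEF1, an activator of the GTPase RAB5. A total of 10 lay at promoters, and 8 lay within 500 bp and 11 within 1 kb of a common region. The neighbour was stronger in 15 of the 16, ARHGDIA being the exception (113 for the neighbour and 114 for the member), and it was lower in APH in 15, with a median log2 difference of -0.18. By group means, 84.95% of common regions of the same strength as these 16 were also lower, a baseline added after the data were seen. None of the 16 passed the test, as did 0% of all common regions (limma with Benjamini-Hochberg adjustment, adjusted p between 0.290 and 0.854). The exception to the direction was EEF2, where the neighbour had 97.8, 92.1 and 99.3 in DMSO and 109, 109 and 95.4 in APH.

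Genes of fixed lists were counted beside all protein-coding genes. At least 1 DMSO only region lay in or within 1 kb of 752 of 20037 protein-coding genes (3.75%), and at least 1 APH only region at 2357 (11.8%). Among 26 long genes of common fragile sites, 7 held a DMSO only region (PTPRG, AUTS2, NBEA and RBFOX1 among them), 10 regions in all, which is 26.9% of the list, and 19 (73.1%) held an APH only region. Long genes offer more room, and 57 of the 315 protein-coding genes of at least 500 kb (18.1%) held a DMSO only region and 189 (60%) an APH only region. RBFOX1, a regulator of splicing in neurons and muscle, held 3 regions with mean values of 24.2, 27.7 and 22.5. The 10 regions in these long genes were weak, between 19.8 and 27.7, except for 1 in AUTS2 with 48.9, which lay 162 bp from a common region.

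Of 25 genes of replication and its checkpoint, 2 (8%) held a region and 1 an APH only region: POLA1, the catalytic subunit of DNA polymerase alpha, with a mean of 22.5, and MCM2 of the replicative helicase with 35.1. MDM2, the ubiquitin ligase that degrades p53, was the only one of 18 p53 targets (5.56%, with 1 for APH only regions), with 48.5, 42.8 and 40.9 inside the gene. Of 15 WNT genes, 2 (13.3%) held a DMSO only region and 2 an APH only region. CTNNB1, which encodes beta-catenin, had a region at its promoter at 48.3 and 54.9 in DMSO replicates 2 and 3, and LEF1, a transcription factor of the pathway, had 68.9, 62.8 and 77.9. The regions at CTNNB1 and LEF1 lay 237 and 310 bp from a common region. FOSB was the only one of 11 AP-1 genes (9.09%, with 1 for APH only regions). CDX2 was the only one of 12 intestinal genes (8.33%, with 2 for APH only regions), with 67.3 and 70.1 in replicates 1 and 3, and ZEB1, a repressor of epithelial genes, the only one of 14 epithelial and mesenchymal genes (7.14%, with 3 for APH only regions), with 119 and 142 in replicates 2 and 3. The CDX2 and ZEB1 regions lay 292 and 123 bp from a common region. Each list member with a mean value of 60 or more thus lay within 1 kb of a common region. The share was above 3.75% in all 7 lists, with 1 or 2 genes behind it in every list but that of long genes, and gene length was not taken into account.

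Few genes held more than 1 region. The read-through gene HOXA10-HOXA9 of the HOXA cluster, whose genes set position along the body axis, held 3, with mean values of 132, 127 and 94.2. Each of them had a peak in only 2 DMSO samples, in a different pair each time. CCND3, which encodes cyclin D3, held 1 of 93.8 and 1 of 20.4, and ATOX1, a copper chaperone, held 1 of 50.01 and 1 of 51.3.

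Along the chromosomes, DMSO only regions were spread widely, with 12.2 per 1000 regions over the genome. The rate was highest on chromosomes 21 (22.04) and 19 (19.4), followed by 13 (17.0) and 17 (15.9). Among chromosomes 1 to 22 and X it was lowest on X (7.62), 8 (8.47) and 6 (9.64), and Y had 0 DMSO only regions among 14. Chromosome 19, which is rich in genes, held 86 DMSO only regions, 6.84% of them against 4.32% of all regions and 2.84% of shared regions of like value. This share was 4.98% to 10.7% over the 4 combinations of DMSO samples. For APH only regions the rates of chromosomes 8 and 19 lay the other way around the genome's rate, with 32.4 per 1000 regions on chromosome 19, 73.3 on chromosome 8 and 51.9 over the genome. There were 0.236 DMSO only regions for each APH only region over the genome, 0.597 on chromosome 19 and 0.116 on chromosome 8. Chromosome 13, high for both (17.0 and 61.6), did not follow this.

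**Figure D4:**
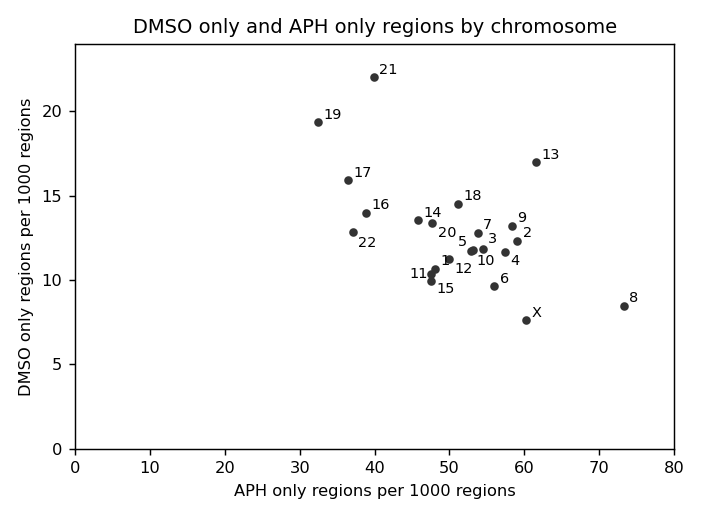
DMSO only regions (y axis) against APH only regions (x axis), both per 1000 regions of the chromosome, 1 point for each of chromosomes 1 to 22 and X. Chromosome 19 stands at 19.4 and 32.4, chromosome 21 is highest for DMSO only regions at 22.04, and chromosome 8 stands at 8.47 and 73.3.

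In windows of 1 Mb that held any region, 1956 had no DMSO only region, 703 had 1, 161 had 2, 55 had 3, 10 had 4, 4 had 5 and 1 had 8. The densest window was on chromosome 19 from 3 to 4 Mb, with 8 DMSO only and 0 APH only regions among 131, near EEF2, NCLN, NFIC, PIP5K1C and SMIM24. Their values ran from 34.7 to 89.3, and 1 of the 8 had a peak in all 3 DMSO samples. The other windows with the most regions had 5 each. They lay on chromosome 19 from 1 to 2 Mb (near TCF3 and MIDN, with 2 APH only regions) and from 47 to 48 Mb (near SAE1 and EHD2, with 4). The others lay on chromosome 17 from 45 to 46 Mb (near HEXIM1 and HEXIM2, inhibitors of the elongation factor P-TEFb, with 5 APH only regions) and on chromosome 16 from 46 to 47 Mb (near ORC6 of the origin recognition complex and DNAJA2, with 1). Thus 3 of the 5 densest windows lay on chromosome 19.

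The surroundings of DMSO only regions were read in common regions, which cannot be members themselves. They were picked by nearness to regions chosen for the peaks of these same 6 samples, with none held out. The tests of neighbours here and below are therefore not independent of that choice, and its part in the differences was not tested. Of 50150 common regions, 2200 (4.39%) had their middle within 25 kb of a DMSO only region. Their median log2(value + 1), less the median over all common regions of the same sample, was 0.50, 0.41 and 0.56 in DMSO and 0.36, 0.35 and 0.49 in APH. Common regions near DMSO only regions were thus stronger than others in all 6 samples, and 2 of the 3 APH samples lay below every DMSO sample while the third lay within their range. The difference of -0.09 between APH and DMSO was of the size of the replicate spread (two-sided exact permutation test, p = 0.2, where 3 samples against 3 cannot give less than 0.1). It was -0.17 without DMSO replicate 2, -0.16 without APH replicate 3 and -0.06 without APH replicate 2. Near APH only regions, 6598 common regions differed by -0.02 (exact permutation test, p = 0.5). Set against common regions of the same strength, in 10 groups, the difference near DMSO only regions was -0.04 (exact permutation test, p = 0.2). The same value less that near APH only regions, a comparison added after the data were seen, was -0.08 before the correction for strength (exact permutation test, p = 0.2) and -0.05 after it, with all 3 APH samples (-0.03, -0.04 and 0.00) below all 3 DMSO samples (0.04, 0.01 and 0.05; exact permutation test, p = 0.1, the smallest this design allows). Both sets were chosen, in opposite directions, by the peaks of these 6 samples. The direction of this comparison is therefore not independent of the choice, and no conclusion is drawn from its p.

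**Figure D5:**
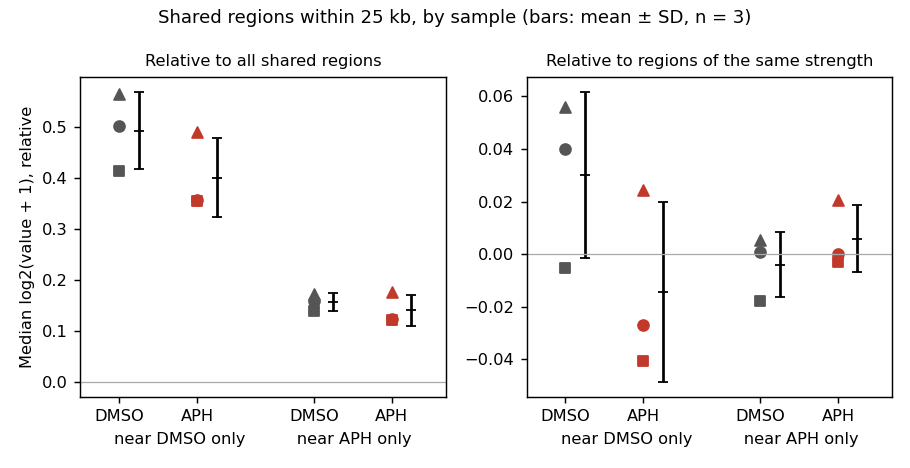
Median log2(value + 1) of common regions within 25 kb of DMSO only and of APH only regions (y axis), for DMSO (grey) and APH (red) samples, with replicates 1, 2 and 3 as circle, square and triangle and the mean ± SD (n = 3) beside them. The left panel is relative to all common regions, and the right panel is relative to common regions of the same strength, where near DMSO only regions 2 of the 3 APH samples lie below every DMSO sample.

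In the test of each common region (limma on log2(value + 1), Benjamini-Hochberg adjustment over all 50150), 0 of the 2200 neighbours passed in either direction, as did 0% of all common regions. This count depended on a fit without the replicate number. With that number as a block, 408 neighbours (18.5%) were lower in APH and 21 (0.955%) higher, against 11.1% and 2.04% of all common regions. At an unadjusted p under 0.05, 351 neighbours (16.0%) were lower in APH against 10.1% of all common regions, and 22 (1%) were higher against 2.46%. Without APH replicate 1, with regions and neighbours chosen anew, 6.45% of the neighbours and 4.11% of all common regions were lower. The share of neighbours that were higher ranged from 0.342% without DMSO replicate 3 to 3.22% without DMSO replicate 2, against 1.30% and 7.67% of all common regions. A negative difference of log2 values was found in 73.8% of the neighbours against 59.3% of all common regions. The median log2 difference was -0.14 against -0.06. Over all common regions the direction turned when 1 library was left out: without DMSO replicate 2, 45.4% were negative with a median of 0.04, and without APH replicate 3, 47.9% with a median of 0.02. Among the neighbours 65.9% and 63.8% were negative in these settings. After quantile normalization, which gives all samples the same distribution of values, 124 neighbours (5.64%) were lower in APH at an unadjusted p under 0.05 against 4.6% of all common regions. In the same setting 82 neighbours (3.73%) were higher against 5.91%, and the medians were -0.04 and -0.01. A negative difference was then found in 59.6% of the neighbours against 51.3% of all common regions. The share of neighbours lower at this p was thus close to that of all common regions after this step.

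The density of peaks around DMSO only regions showed no difference beyond the spread. Among peaks in regions with a peak in both conditions, 4.28%, 4.19% and 4.40% of the DMSO peaks and 4.22%, 4.199% and 4.33% of the APH peaks lay within 25 kb of a DMSO only region. The means of 4.29% ± 0.104 and 4.25% ± 0.0692 (SD, n = 3) overlapped (exact permutation test, two-sided, p = 0.7). The direction of this difference turned around when DMSO replicate 1 or 3 was left out (0.00275 and 0.00425 points). An APH only region lay within 25 kb of 165 DMSO only regions (13.1%), against 11.2% of shared regions of like value.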

How the data were processed

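ATAC-seq peak lists of 6 RKO samples (3 DMSO, 3 APH) were used. The authors aligned reads with BWA in mem mode, kept uniquely mapped matched pairs without duplicates, extended alignments to 200 bp and counted them in bins of 32 nt. Peaks were called per sample with MACS2 without a control, and blacklisted peaks were removed. No shift of reads to the cutting site of the transposase is named. The submitters' processing notes give BWA 0.7.12, MACS2 2.1.0 and hg38. The deposited value of each peak is the mean signal (coverage) over the peak. For 99.9953% or more of the peaks of every sample, this value times the number of bins gave an integer within 0.0006 per bin, so the maps hold whole counts. The sources used here do not say whether reads were first reduced to equal numbers.

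Peaks were merged across samples, and each region took the mean value of its peaks in each sample, weighted by length. Classes and distances use RefSeq genes of GRCh38.p14. The start was read from the RefSeq promoter table for 27305 genes and from the strand in GENCODE for 7555, and 7974 genes without either were not used as starts, which left 19675 of 20037 protein-coding genes with one. Shared regions were weighted to the DMSO values of the members in 20 bins. Differences between the groups in 1 value per sample were tested by exact permutation (two-sided), and common regions with limma 3.58.1 on log2(value + 1) with an intensity trend (R 4.3.3, Python 3.11.15, numpy 2.4.6, pandas 2.3.3, scipy 1.17.1). The limma script was first tested on simulated data. The smallest change put in, larger than the median difference of the neighbours, was not recovered, so a count of 0 calls says little about differences of that size.

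Named regions were the 12 of highest value in all 3 DMSO samples, the 10 of highest value among these at protein-coding promoters, the 5 genes and the 5 windows of 1 Mb with the most members, and members at genes of fixed lists. The members and lists were chosen with earlier results of these data known. Alternatives covered the peak threshold, peak number, merging, overlap, distance, pseudocount, normalization, gene set, the replicate number as a block and leaving out 1 replicate at a time. A few items that met these rules are not reported here. No sequence of GRCh38 outside the promoter table was used.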

Additional observations from a re-analysis of the deposited data

How the results depend on the processing

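The number of DMSO only regions was 2468 with an equal number of peaks, 189 with a peak required in all 3 DMSO samples, and 386 to 2546 with 1 replicate left out. The held-out difference was 15.04 points with an equal number of peaks and -7.49 to 0.273 with 1 replicate left out (where it was a DMSO replicate, 1 DMSO sample chose the regions, and where it was an APH replicate, 1 APH sample had to lack a peak). It turned positive without DMSO replicate 3. The share at promoters was 6.69% with an equal number of peaks, 7.51% with peaks less than 200 bp apart merged, 14.4% within 2 kb of a start and 8.51% with protein-coding genes only, where 43.1% were intergenic. The median width was 309 bp with an equal number of peaks and 307 bp in all 3 DMSO samples. The difference in the share of peaks near DMSO only regions turned positive with an equal number of peaks (0.0342) and for regions in all 3 DMSO samples (0.00174), and lay between -0.177 and 0.00425 with 1 replicate left out. The value of common regions near DMSO only regions was lower in APH under every alternative run (-0.17 to -0.06 with 1 replicate left out, and -0.17 without DMSO replicate 2 and -0.16 without APH replicate 3). The cause of these changes was not tested. With the replicate number as a block, limma called 408 of the 2200 neighbours lower and 21 higher in APH (18.5% and 0.955%, against 11.1% and 2.04% of all common regions). The replicate block left the difference of neighbour values at -0.09 (exact sign-flip permutation test, p = 0.25, the smallest it allows). Deviations of samples with the same number correlated at -0.00665, 0.477 and 0.515. DMSO replicates 2 and 3 correlated best with the APH sample of their number, and DMSO replicate 1 with APH replicate 3 (0.126). The numbers were therefore not taken to pair the samples, but whether equal numbers share an experiment remains unknown. With 3 samples a group and depth unknown, a missing peak cannot be told apart from a coverage just under the calling limit.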
